A study of Sus scrofa with 19 samples.

Results

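Peroxide and quinone detoxification was followed through 7 genes, PRDX2, PRDX6, CAT, SRXN1, MSRA, GSR and NQO1, in the adrenal glands of 19 male piglets. The genes were taken by name, each through the probe sets whose only symbol it is in the array annotation, so that 7 of 12217 genes with a probe set of their own are described. They have 8 probe sets, because SRXN1 has 2, and these 2 hold identical values in all 19 arrays and were counted once. All 7 genes passed the filter on dim probe sets.

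One piglet was taken from each sow. The sows ate a fish oil, a microalgae or a control diet from gestation day 75 and were given lipopolysaccharide (LPS, a bacterial cell wall component that provokes inflammation) or saline on gestation day 112. Fish oil and microalgae both supply long-chain omega-3 fatty acids. All piglets were weaned at 21 days, received LPS themselves at 28 days and were killed 2 hours later, so that no gland comes from an unchallenged piglet. In the groups below, LPS and saline refer to the sow. There were 4 fish oil LPS piglets (10, 19, 20 and 24 by their label numbers), 4 fish oil saline piglets (9, 11, 13 and 18), 2 microalgae LPS piglets (7 and 23), 3 microalgae saline piglets (12, 15 and 22), 3 control LPS piglets (6, 16 and 17) and 3 control saline piglets (8, 14 and 21).

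Cells remove hydrogen peroxide and lipid peroxides by several routes that draw on a common supply of NADPH. Peroxiredoxins reduce peroxides in the cytosol and mitochondria, catalase does so in peroxisomes, and repair enzymes return oxidised proteins to their reduced state. Quinones are a separate load, because their partial reduction feeds superoxide production. The adrenal cortex is exposed to such oxidants because the cytochrome P450 enzymes that make steroid hormones leak electrons. The transcription factor NRF2, which is released from KEAP1 under oxidative stress, is known from mouse and human cells to raise SRXN1, NQO1, GSR and many related genes.

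Values are log2 signals of an array, and a difference of 1 is a 2-fold difference. They compare piglets for 1 gene and not genes with each other. The array medians lay between 4.38 and 4.52 and correlations between arrays, across probe sets, between 0.934 and 0.982. Piglets 24 and 6 had the narrowest arrays, with interquartile ranges of 2.27 and 2.39, against 2.44 to 2.65 in the other 17. The adrenal label was borne out by strong cortex markers (CYP17A1 averaged 12.4, SCARB1 11.4 and CYP21A2 11.2) and by the medulla marker CHGB (10.8). Other markers had weaker signals. Of 6 cortex markers with a probe set of their own, FDXR averaged 6.74 and NR0B1 3.91. CHGB was the highest of 10 medulla markers, and PHOX2A the lowest (4.01). Of 11 red blood cell genes with a probe set of their own, 7 passed the filter of 3.23, the embryonic globin HBZ with the highest average (5.29), and 4, the haem synthesis gene ALAS2 among them (2.72), did not. The labels and files give no batch. In a whole gland, fewer cells of a type and less RNA per cell cannot be told apart. Differences were tested in a limma model over all 20668 probe sets that passed the filter, with Benjamini-Hochberg adjustment, and ± beside a difference is its standard error. Simulated data of the same design gave a call for 3 of 50 planted fish oil differences of 0.3 log2, 17 of 50 at 0.5 and 46 of 50 at 1. The simulated noise was independent between probe sets, and 50 differences of 2 log2 were planted along with these. That gave 123 calls, against 0 in the real fish oil comparison. The adjusted threshold depends on the number of calls, so these shares may be too high for the real data.

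Fish oil against control showed all 7 genes higher by sign, by 0.01 to 0.33 log2, with a median of 0.22. By sign, 50.4% of all tested probe sets were higher. The 7 genes have bright probe sets, with mean signals above those of 74.5% to 98.9% of all probe sets. At an unadjusted p under 0.05, 288 tested probe sets were higher and 267 lower. With the lowest 50% by mean signal left out, these counts were 211 and 117, a tilt in the direction of the 7 genes. None of the 7 passed the adjusted threshold, as did none of the 20668 probe sets (0.0%). At an unadjusted p under 0.05, PRDX6 and NQO1 were higher, 2 of 7, where 1.39% of all probe sets were. The exact permutation test added GSR. The largest difference was that of PRDX6 and the smallest that of SRXN1, whose sign turned with quantile normalization (-0.03), and with the medulla marker level or the array spread as a covariate. Without piglets 6 and 24, the 2 narrowest arrays, all 7 were higher by sign and the median was 0.18.

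PRDX6, a peroxiredoxin that reduces phospholipid hydroperoxides with glutathione and also has phospholipase activity, had 8.94, 8.79, 8.49 and 8.998 in fish oil LPS piglets and 8.75, 8.60, 8.52 and 8.37 in fish oil saline piglets. It had 8.55, 8.87 and 8.03 in control LPS piglets and 8.22, 8.27 and 8.20 in control saline piglets. All 8 fish oil piglets lay above the control median of 8.25, but the ranges overlapped because control LPS piglets 6 and 16 exceeded 3 and 6 of them. The diets averaged 8.68 ± 0.22 with fish oil (SD, n = 8) and 8.36 ± 0.30 with control (SD, n = 6). The model difference was 0.33 ± 0.130, a 1.25-fold difference, with an unadjusted limma p of 0.0218 and an adjusted p of 0.9999. An exact permutation test with labels moved within each maternal challenge gave p = 0.0196, unadjusted, where the smallest possible is 0.000816. After maternal saline alone, all 4 fish oil piglets exceeded all 3 control piglets, which 2.21% of probe sets did. Without control LPS piglet 17, the lowest of all, the difference was 0.21 (limma, unadjusted p = 0.0941), and with quantile normalization it was 0.29 (limma, unadjusted p = 0.0516).

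NQO1, the enzyme that reduces quinones fully in a single step and so bypasses the reactive semiquinone, had 6.14, 6.27, 6.65 and 6.25 in fish oil LPS piglets and 6.28, 6.40, 6.89 and 6.14 in fish oil saline piglets. The control LPS piglets had 5.90, 5.99 and 5.83, and the control saline piglets 6.47, 6.15 and 6.25. The 3 control LPS piglets were the lowest of all 19, while the control saline piglets lay among the fish oil piglets. Over both challenges the difference was 0.28 ± 0.119, or 1.21-fold (limma, unadjusted p = 0.0310, adjusted p = 0.9999; exact permutation p = 0.0474). Within the LPS sows it was 0.42 ± 0.168 (limma, unadjusted p = 0.0219), where 1.61% of probe sets were higher at that level, and the groups did not overlap, as in 1.78% of probe sets. Within the saline sows it was 0.13 ± 0.168, and the difference between the 2 effects was 0.29 ± 0.238 (limma, adjusted p = 0.9999). Leaving out piglet 13, the highest NQO1 value, gave 0.20 (limma, unadjusted p = 0.0694), and the unadjusted p was also above 0.05 without piglet 14, 17, 20 or 21.

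**Figure D1:**
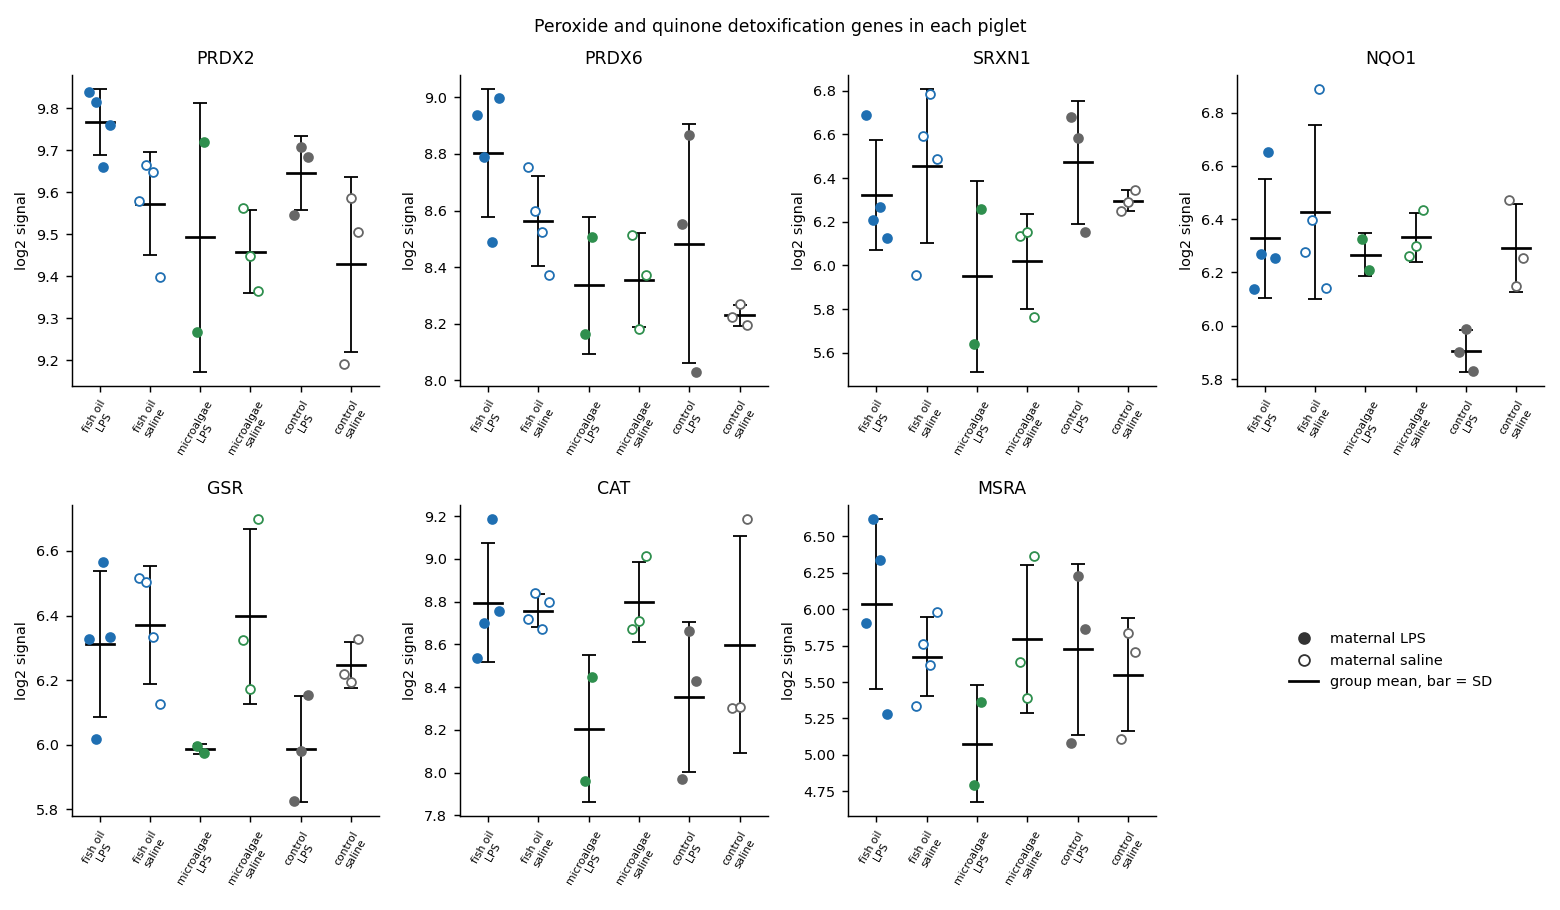
Log2 signal (vertical axis) of each gene in each of the 19 piglets, by sow diet and challenge along the horizontal axis. Filled points are LPS sows and open points saline sows, horizontal lines are group means and bars SD. The 3 control LPS piglets sit lowest for NQO1, between 5.83 and 5.99, and MSRA has the widest scatter within groups.

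GSR, which uses NADPH to return oxidised glutathione to its reduced form, had 6.33, 6.02, 6.57 and 6.33 in fish oil LPS piglets and 6.52, 6.50, 6.33 and 6.13 in fish oil saline piglets. It had 5.82, 5.98 and 6.15 in control LPS piglets and 6.22, 6.19 and 6.33 in control saline piglets. In all, 6 of 8 fish oil piglets exceeded every control piglet, and the other 2 lay within the control range. Of the 6, piglets 10, 24 and 13, at 6.3284, 6.3319 and 6.333, barely exceeded control saline piglet 21, at 6.3283. The difference was 0.22 ± 0.112, or 1.17-fold (limma, unadjusted p = 0.0612, adjusted p = 0.9999; exact permutation p = 0.0441). With 1 piglet left out it kept its sign, and the unadjusted limma p was under 0.05 without piglet 17, 18, 19 or 22.

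CAT, catalase, splits hydrogen peroxide to water and oxygen. It had 8.54, 8.70, 9.19 and 8.76 in fish oil LPS piglets and 8.72, 8.84, 8.67 and 8.80 in fish oil saline piglets, against 7.97, 8.66 and 8.43 in control LPS piglets and 8.30, 8.31 and 9.19 in control saline piglets. All 8 fish oil piglets exceeded the control median of 8.37, yet control saline piglet 21 was as high as the highest of them. The difference was 0.30 ± 0.158 (limma, unadjusted p = 0.0746; exact permutation p = 0.100), and with 1 piglet left out it ran from 0.20 without piglet 6 (limma, unadjusted p = 0.219) to 0.45 without piglet 21 (limma, unadjusted p = 0.00591, which did not pass adjustment).

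PRDX2, the abundant cytosolic peroxiredoxin that thioredoxin recharges, ranged from 9.40 to 9.84 in fish oil piglets (median 9.66) and from 9.19 to 9.71 in control piglets (median 9.57). Its difference of 0.13 ± 0.0993 had an unadjusted limma p of 0.198. MSRA, which repairs oxidised methionine in proteins, ranged from 5.28 to 6.62 with fish oil (median 5.83) and from 5.08 to 6.23 with control (median 5.77), a difference of 0.22 ± 0.230 (limma, unadjusted p = 0.359). SRXN1, sulfiredoxin, restores peroxiredoxins whose catalytic cysteine has been overoxidised. It differed by 0.01 ± 0.147 between fish oil and control, with a 95% interval from -0.30 to 0.31, so that a difference of 0.3 in either direction is inside the interval.

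Cell type markers also differed by sign between these diets. Of the 107 markers tested in 10 lists, 8 had an unadjusted p under 0.05 (7.48%), where 2.69% of all probe sets had one in either direction, and none passed the adjusted threshold. They were the collagens COL1A1, COL1A2, COL3A1, COL5A2 and COL6A3, which were lower, and the cortex enzyme CYP21A2 and the lymphocyte genes CD2 and NKG7, which were higher. Of the 17 fibroblast and capsule markers, 13 were lower with fish oil (median -0.43), 5 of them at an unadjusted p under 0.05, where 1.29% of all probe sets were lower, and their mean level, relative to the average over all piglets, ran from -0.87 to 0.50 with fish oil and from -0.74 to 0.78 with control. Of the 19 cortex markers listed, 6 had a probe set of their own, and all 6 were higher with fish oil (median 0.14, 1 at an unadjusted p under 0.05), with levels from -0.05 to 0.17 with fish oil and from -0.31 to 0.11 with control. Of 18 macrophage markers, 16 were higher (median 0.15, none at that level), and of 14 lymphocyte markers, 11 were higher (median 0.19, 2 at that level). All 7 kidney and liver markers were lower (median -0.14, none at that level), as were 7 of 10 medulla markers (median -0.13) and 7 of 9 fat markers (median -0.08).

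Without piglets 6 and 24 the counts in the same directions were 13 of 17 for fibroblast and capsule, with 9 at an unadjusted p under 0.05, 5 of 6 for cortex, 14 of 18 for macrophage, 11 of 14 for lymphocyte, 7 of 7 for kidney and liver, and 7 of 9 for fat. The medulla markers turned, with 8 of 10 higher (median 0.05). Between piglets of the same group, 77 relations of the 7 genes to marker levels and array measures were computed, and no relation to a marker level passed adjustment. The strongest were between MSRA and the fat level (r = -0.65, rho = -0.53, permutation p = 0.00211 for r, adjusted 0.0812, n = 19), NQO1 and the macrophage level (r = -0.63, rho = -0.56, permutation p = 0.00386, adjusted 0.0903) and MSRA and the lymphocyte level (r = -0.62, rho = -0.59, permutation p = 0.00469, adjusted 0.0903). The relation of NQO1 to the macrophage level within groups was negative but did not pass adjustment, and both were higher by sign with fish oil. The cortex level correlated with PRDX2 (r = 0.57, rho = 0.58, permutation p = 0.0116, adjusted 0.149) and with PRDX6 (r = 0.54, rho = 0.59, permutation p = 0.0185, adjusted 0.178). Without the 2 piglets of most extreme marker level these 5 values of r were -0.38, -0.33, -0.46, 0.45 and 0.63, in the same order. With the medulla level as a covariate, PRDX6 differed by 0.31 between fish oil and control (limma, unadjusted p = 0.0325). NQO1 then differed by 0.27 (limma, unadjusted p = 0.0421). The levels of the other lists named here were not used as covariates, and the part of these cells in the differences was not tested.

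Microalgae against control placed SRXN1 lower, 1 of 7 genes at an unadjusted p under 0.05, where 0.789% of all probe sets were lower. SRXN1 had 5.64 and 6.26 in microalgae LPS piglets and 6.13, 6.15 and 5.77 in microalgae saline piglets, against 6.68, 6.58 and 6.15 in control LPS piglets and 6.25, 6.29 and 6.35 in control saline piglets. Every microalgae piglet lay below the control median of 6.32, and 3 of 5 lay below all control piglets. The difference was -0.40 ± 0.167, or 0.758-fold (limma, unadjusted p = 0.0280, adjusted p = 0.99999; exact permutation p = 0.0400, where the smallest possible is 0.005). After maternal saline the groups did not overlap, as in 4.25% of probe sets, and after maternal LPS the difference was -0.52 ± 0.249 (limma, unadjusted p = 0.0506). Microalgae LPS piglet 7 was the lowest of all 19, and without it the difference was -0.25 (limma, unadjusted p = 0.200). The unadjusted p was also above 0.05 without piglet 6, 16 or 22 and without both piglets 6 and 24. Over all 10 marker lists, 2 of 107 markers had an unadjusted p under 0.05 (1.87%), where 1.65% of all probe sets had one. Both, CD34 and ECSCR, were lower and belong to the endothelium list. Of its 12 markers, 9 were lower with microalgae (median -0.11). The endothelium level ran from -0.27 to 0.15 with microalgae and from -0.06 to 0.07 with control. Within groups, SRXN1 correlated with that level (r = 0.48, rho = 0.50, permutation p = 0.0387, adjusted over the 77 relations 0.298, n = 19; r = 0.38 without piglets 10 and 12). Of 14 lymphocyte markers, 13 were higher with microalgae (median 0.19, none at that level), as were 8 of 10 medulla markers (median 0.10, and 0.27 without piglets 6 and 24). The part of these cells in the SRXN1 difference was not tested.

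NQO1 had 6.32 and 6.21 in microalgae LPS piglets and 6.26, 6.30 and 6.44 in microalgae saline piglets, all 5 above the control median of 6.07. The difference from control was 0.20 ± 0.135 (limma, unadjusted p = 0.154; exact permutation p = 0.0550). As with fish oil, the 2 microalgae LPS piglets lay above all 3 control LPS piglets, which 10.1% of probe sets did in groups of this size. These 2 diet comparisons share the control piglets. PRDX6 and CAT differed from control by -0.01 ± 0.147 and 0.03 ± 0.179, with 95% intervals from -0.32 to 0.30 and from -0.35 to 0.40. GSR (0.08), PRDX2 (-0.06) and MSRA (-0.20) also had intervals that included 0. None of the 7 genes or of the 20668 probe sets passed the adjusted threshold (0.0%).

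Fish oil against microalgae placed all 7 genes higher with fish oil by sign (median 0.27, against 48.7% of all probe sets higher). SRXN1 and PRDX6 were higher at an unadjusted p under 0.05, 2 of 7 against 1.55% of probe sets. With the lowest 50% by mean signal left out, 251 probe sets were higher and 105 lower at that level, against 321 and 269 as reported. None of the 7 or of all probe sets passed the adjusted threshold (0.0%). SRXN1 had 6.69, 6.21, 6.27 and 6.13 in fish oil LPS piglets and 5.96, 6.59, 6.78 and 6.49 in fish oil saline piglets, and 5 of these 8 exceeded every microalgae piglet. The difference was 0.40 ± 0.157, or 1.32-fold (limma, unadjusted p = 0.0193, adjusted p = 0.9999; exact permutation p = 0.0381, where the smallest possible is 0.0019).

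PRDX6 had 8.16 and 8.51 in microalgae LPS piglets and 8.51, 8.18 and 8.37 in microalgae saline piglets, and 6 of 8 fish oil piglets exceeded all of them. The difference of fish oil from microalgae was 0.34 ± 0.139 (limma, unadjusted p = 0.0262; exact permutation p = 0.0210). PRDX2 had 9.27 and 9.72 in microalgae LPS piglets and 9.56, 9.45 and 9.37 in microalgae saline piglets. Its difference was 0.19 ± 0.106 (limma, unadjusted p = 0.0843; exact permutation p = 0.0343). Without piglet 7 the SRXN1 and PRDX6 differences were both 0.25 (limma, unadjusted p = 0.173 and 0.142). The PRDX2 difference was 0.08 without piglet 7 (limma, unadjusted p = 0.496) and 0.31 without piglet 23 (limma, unadjusted p = 0.0175). The unadjusted p was also above 0.05 for SRXN1 without piglet 22, and for PRDX6 without piglet 15 and with quantile normalization (0.30, unadjusted p = 0.0569). MSRA had the largest difference between these diets, 0.42 ± 0.246, with an interval from -0.10 to 0.93, and with 1 piglet left out it ran from 0.28 without piglet 7 (limma, unadjusted p = 0.356) to 0.56 without piglet 22 (limma, unadjusted p = 0.0372). CAT (0.27), GSR (0.15) and NQO1 (0.08) had intervals that included 0. After maternal LPS, GSR and CAT were higher in all 4 fish oil piglets than in both microalgae piglets, as were 5.7% of probe sets.

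Several marker lists differed by sign between fish oil and microalgae. Over all 10 lists, 6 of 107 markers had an unadjusted p under 0.05 (5.61%), where 2.85% of all probe sets had one. Among them 4 were higher and 2 lower with fish oil, where 1.55% and 1.3% of all probe sets were. Of the 10 medulla markers 8 were lower with fish oil (median -0.31, none at an unadjusted p under 0.05), and with the medulla level as a covariate PRDX6 differed by 0.30 (limma, unadjusted p = 0.0514). Of 12 endothelium markers, 10 were higher (median 0.18), TEK and CD34 at that level, with levels from -0.02 to 0.24 with fish oil and from -0.27 to 0.15 with microalgae. The endothelium level correlated within groups with both SRXN1, as given above, and PRDX6 (r = 0.46, rho = 0.39, permutation p = 0.0458, adjusted 0.321). Of 18 macrophage markers, 15 were higher (median 0.17), MRC1 and MS4A7 at that level. Of 17 fibroblast and capsule markers, 13 were lower (median -0.37), COL6A3 and MFAP5 at that level, where 1.3% of all probe sets were lower. Without piglets 6 and 24 the counts were 9 of 10, 10 of 12, 13 of 18 and 11 of 17, and the fibroblast median was -0.18. The part of these cells in the SRXN1 and PRDX6 differences was not tested.

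**Figure D2:**
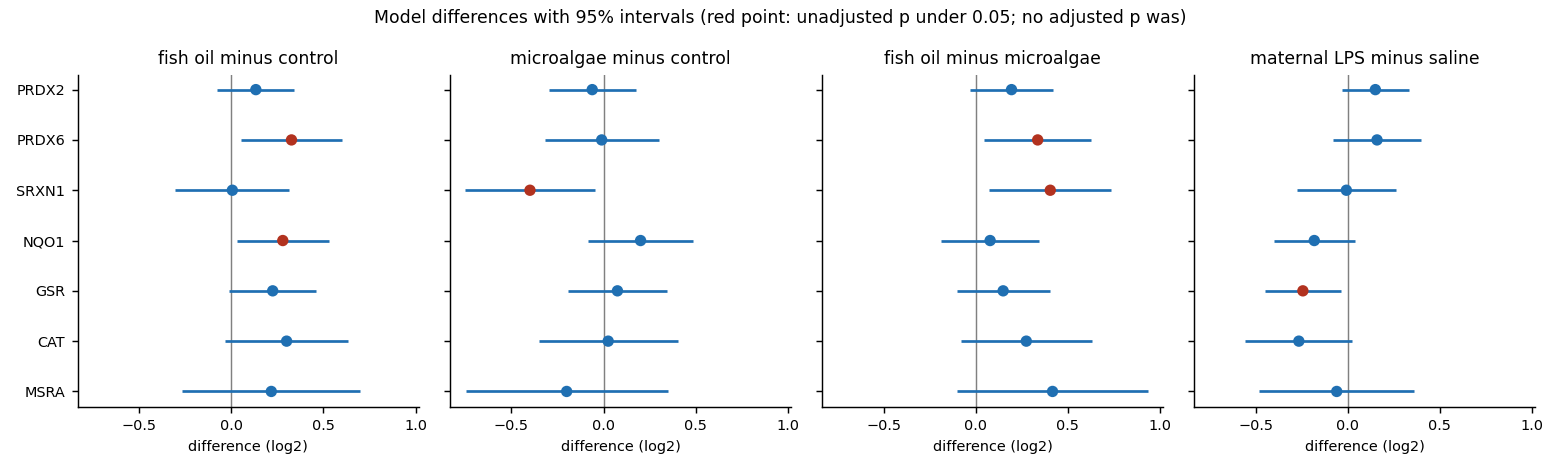
Model differences (horizontal axis, log2) of the 7 genes in the 4 comparisons, with 95% intervals as lines. Red points have an unadjusted limma p under 0.05, and no gene passed the adjusted threshold. PRDX6 lies near 0.33 in both fish oil comparisons, and SRXN1 at -0.40 for microalgae against control.

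Maternal LPS against saline divided the 7 genes by sign. GSR (-0.24), NQO1 (-0.18), CAT (-0.27), MSRA (-0.06) and SRXN1 (-0.01) were lower after maternal LPS, and PRDX6 (0.16) and PRDX2 (0.15) were higher, 2 of 7, where 51.8% of all probe sets were higher by sign. The signs of MSRA and SRXN1 turned under other processing. GSR was lower at an unadjusted p under 0.05, 1 of 7, where 3.59% of all probe sets were lower, and the exact permutation test added NQO1. With the lowest 50% by mean signal left out, 421 probe sets were higher and 655 lower at an unadjusted limma p under 0.05. As reported, 697 were higher and 743 lower. None of the 7 passed the adjusted threshold, which 2 of 20668 probe sets did (0.00968%).

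GSR ranged from 5.82 to 6.57 in the 9 LPS piglets (median 6.02) and from 6.13 to 6.70 in the 10 saline piglets (median 6.33). Among the LPS piglets, 5 of 9 lay below every saline piglet. The difference was -0.24 ± 0.0979, or 0.844-fold (limma, unadjusted p = 0.0227, adjusted p = 0.680; exact permutation p = 0.0191, where the smallest possible is 7.14e-05). By diet it was -0.06 ± 0.147 with fish oil, -0.41 ± 0.190 with microalgae and -0.26 ± 0.170 with control. The microalgae and control groups did not overlap, as in 14.7% and 2.92% of probe sets. Without microalgae saline piglet 22, the highest value, the overall difference was -0.19 (limma, unadjusted p = 0.0568).

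NQO1 ranged from 5.83 to 6.65 in the LPS piglets (median 6.21) and from 6.14 to 6.89 in the saline piglets (median 6.29), a difference of -0.18 ± 0.104 (limma, unadjusted p = 0.0964, adjusted p = 0.711; exact permutation p = 0.0488). The control diet had the largest of the 3 differences, -0.39 ± 0.180 (limma, unadjusted p = 0.0465, where 0.755% of probe sets were lower at that level). Its 2 groups did not overlap, and 2.92% of probe sets were lower in this way. The difference was -0.10 ± 0.156 with fish oil and -0.07 ± 0.201 with microalgae. CAT ranged from 7.96 to 9.19 in the LPS piglets (median 8.54) and from 8.30 to 9.19 in the saline piglets (median 8.71), a difference of -0.27 ± 0.138 (limma, unadjusted p = 0.0701; exact permutation p = 0.124). With 1 piglet left out it ran from -0.35 without piglet 23 (limma, unadjusted p = 0.0368) to -0.17 without piglet 21 (limma, unadjusted p = 0.180). With microalgae the 2 LPS piglets, at 7.96 and 8.45, lay below the 3 saline piglets, at 8.67, 8.71 and 9.01, a difference of -0.59 ± 0.267 (limma, unadjusted p = 0.0400, adjusted p = 0.412). In that pair of groups 5.81% of all probe sets were lower at an unadjusted p under 0.05, and 14.7% were lower without overlap.

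PRDX2 ranged from 9.27 to 9.84 in the LPS piglets (median 9.71) and from 9.19 to 9.66 in the saline piglets (median 9.53). Among the LPS piglets, 6 of 9 exceeded every saline piglet, and the difference was 0.15 ± 0.0867 (limma, unadjusted p = 0.103; exact permutation p = 0.0626). PRDX6 differed by 0.16 ± 0.113, MSRA by -0.06 ± 0.201 and SRXN1 by -0.01 ± 0.128. The PRDX2 difference was 0.07 without piglet 23 (limma, unadjusted p = 0.429) and 0.22 without piglet 7 (limma, unadjusted p = 0.0243). The PRDX6 difference was 0.09 without piglet 16 (limma, unadjusted p = 0.394) and 0.23 without piglet 17 (limma, unadjusted p = 0.0353).

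Among cell type markers, 5 of 6 cortex genes (median -0.10) and 8 of 10 medulla genes (median -0.15) were lower after maternal LPS by sign, and 6 of 7 tested red blood cell genes (median 0.20) and 8 of 9 fat genes (median 0.10) were higher. Of the 107 markers in all lists 4 had an unadjusted p under 0.05 (3.74%), where 6.97% of all probe sets had one. They were the globin HBE1, the macrophage gene ITGAM and the neutrophil gene S100A9, which were higher, and the fibroblast gene POSTN, which was lower. ITGAM and POSTN went against most of their lists. Of 18 macrophage markers 8 were higher and 10 lower (median -0.01), and of 7 neutrophil markers 4 were higher (median 0.03). Of 17 fibroblast and capsule markers 10 were higher (median 0.04), and 15 without piglets 6 and 24. Without these 2 piglets the cortex, medulla, red blood cell and fat counts were 5 of 6, 10 of 10, 6 of 7 and 7 of 9. The cortex and red blood cell medians were then -0.04 and 0.09. With the array spread as a covariate the 4 counts were 5 of 6, 9 of 10, 5 of 7 and 6 of 9. The red blood cell and fat medians were then 0.20 and 0.04. The red blood cell markers had weak signals, averaging from 3.23 (KLF1) to 5.29 (HBZ), where the filter was 3.23. The red blood cell level ran from -0.22 to 0.40 after LPS and from -0.23 to 0.16 after saline. With that level as a covariate GSR differed by -0.28 (limma, unadjusted p = 0.0251), NQO1 by -0.11 and CAT by -0.19. With the array spread as a covariate these values were -0.22, -0.16 and -0.20.

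No interaction of diet with maternal challenge passed the adjusted threshold for any of the 7 genes (limma, lowest adjusted p = 0.858) or for any probe set (0.0%). None of the 7 had an unadjusted p under 0.05, where 2.64% of probe sets had one for fish oil and 5.41% for microalgae. The largest was that of MSRA, whose LPS effect with microalgae differed from that with control by -0.89 ± 0.521 (limma, unadjusted p = 0.104). MSRA had 4.79 and 5.36 in microalgae LPS piglets and 5.64, 5.39 and 6.37 in microalgae saline piglets, against 5.08, 6.23 and 5.87 in control LPS piglets and 5.11, 5.84 and 5.70 in control saline piglets. Over the alternatives this MSRA interaction ran from -1.22 without both piglets 6 and 24 (limma, unadjusted p = 0.0130, adjusted p = 0.342) to -0.48 with the red blood cell level as a covariate (limma, unadjusted p = 0.316). Without both piglets 6 and 24, 2422 probe sets had an unadjusted limma p under 0.05 for the microalgae interaction, against 1118 as reported.

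Ordered by group mean, PRDX2 and PRDX6 were both highest in fish oil LPS piglets (9.77 ± 0.08 and 8.80 ± 0.23, SD, n = 4) and both lowest in control saline piglets (9.43 ± 0.21 and 8.23 ± 0.04, SD, n = 3). NQO1 was highest in fish oil saline piglets and lowest in control LPS piglets, GSR and CAT were highest in microalgae saline piglets, and CAT, MSRA and SRXN1 were lowest in microalgae LPS piglets. Neighbouring groups in these orders overlapped, with 3 exceptions. These were microalgae saline below control saline for SRXN1 (as in 4.25% of probe sets), microalgae LPS above control LPS for NQO1 (10.1%), and microalgae LPS below control saline for GSR (9.62%). The spread within groups was lowest for PRDX2 (SD 0.15) and highest for MSRA (SD 0.47).

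Between piglets of the same group, no pair of the 7 genes had an adjusted p under 0.05. Of the 21 pairs, CAT with MSRA had the highest correlation of deviations from the group means (r = 0.55, rho = 0.53, permutation p = 0.0144, adjusted over the pairs 0.302, n = 19), followed by CAT with GSR (r = 0.47, rho = 0.55, permutation p = 0.0405, adjusted 0.426). Without the 2 piglets farthest from the median these were 0.59 and 0.46. The peroxiredoxins correlated at 0.39 with each other and PRDX2 with its repair enzyme SRXN1 at 0.41. SRXN1 and GSR, both known NRF2 targets, stood at -0.37.

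MSRA was higher on arrays of wider spread. Its deviations correlated with the interquartile range of all values of the same array (r = 0.79, rho = 0.74, permutation p = 3e-05, adjusted over 77 relations 0.00231, n = 19), and r was 0.71 without piglets 15 and 24. This was the 1 relation of the 77, over 7 genes and 11 array or marker measures, to pass adjustment. CAT stood at 0.36 and PRDX6 at -0.19. With the array spread as a covariate, MSRA differed by 0.09 between fish oil and control, against 0.22 without it, and by 0.17 between maternal LPS and saline, against -0.06.

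**Figure D3:**
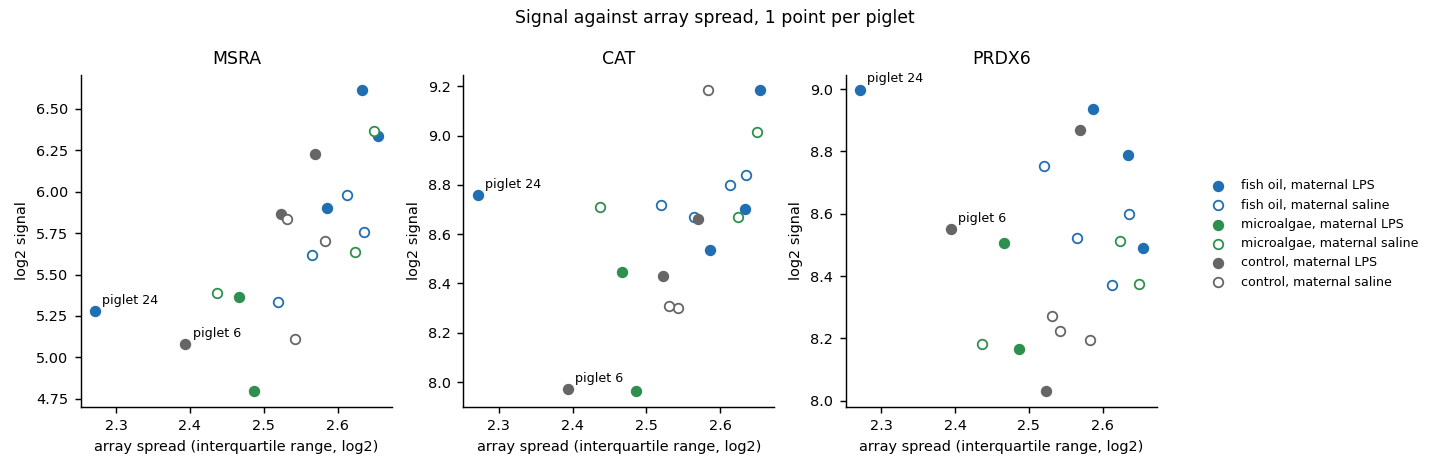
Log2 signal of MSRA, CAT and PRDX6 (vertical axes) against the interquartile range of all values of the same array (horizontal axis, log2), 1 point per piglet. MSRA is higher on wider arrays, with r = 0.79 after group means were removed, while PRDX6 in piglet 24, the narrowest array, is the highest of all.

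The genes most like each member, by the correlation of deviations from group means over 19 piglets and 10691 probe sets with 1 symbol, are a description of these arrays. For PRDX2 they were ATP5H (r = 0.90), LYRM1 (0.88) and the steroid enzyme CYP17A1 (0.82), and for PRDX6 they were GRB10 (0.82), TMEM128 (0.82) and the glutathione transferase GSTO1 (0.82). CAT was most like ZNF281 (0.89), C1H9orf40 (0.86) and ZCCHC13 (0.85). SRXN1 was most like LOC100523107 (0.87), the co-chaperone DNAJB6 (0.86) and CDH6 (0.78). MSRA was most like LRP6 (0.95), RAB14 (0.94) and PICALM (0.94). GSR was most like ATL2 (0.79), IGBP1 (0.78) and XPNPEP1 (0.76), and NQO1 was most like NSMCE4A (0.83), RIC1 (0.78) and DCBLD1 (0.78).

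Related enzymes were read from 11 lists, and no gene in them passed the adjusted threshold in any of the 4 comparisons. With fish oil against control, 3 of 4 other peroxiredoxins were higher by sign (median 0.10), among them mitochondrial PRDX3 (0.15 ± 0.142). So were 7 of 8 genes on a list named for NADPH supply (median 0.10) and 13 of 17 other NRF2 targets (median 0.08). The median of all tested probe sets was 0.00. Without piglets 6 and 24 these counts were 2 of 4 (median 0.02), 7 of 8 (median 0.15) and 10 of 17 (median 0.05). Other lists were more evenly split. In the thioredoxin system 7 of 13 were higher and 6 lower (median 0.03). Glutathione peroxidases and synthesis had 5 of 7 higher, and glutathione transferases and superoxide dismutases and sources 4 of 7 each. Of 6 other quinone and carbonyl reductases, 2 were higher and 4 lower (median -0.04). Other methionine sulfoxide reductases had 1 of 2 higher. Of the 88 genes tested over the 11 lists, 2 had an unadjusted p under 0.05 (2.27%), near the 2.69% of all probe sets. They were the carbonyl reductase CBR4 (0.45 ± 0.209, limma, unadjusted p = 0.0454) and the conjugate exporter ABCC2 (0.30 ± 0.117, limma, unadjusted p = 0.0202). The ABCC2 signal was weak, with a mean of 3.55 where the filter was 3.23. Of the 8 regulators around KEAP1 and NRF2, 6 were higher, with the smallest p for the autophagy adaptor SQSTM1 (0.18 ± 0.112). Of 19 peroxisome genes, 14 were higher against control (median 0.06, but 11 and a median of 0.02 without piglets 6 and 24) and 17 against microalgae (median 0.06). Of the 88 genes 3 had an unadjusted p under 0.05 against microalgae (3.41%), where 2.85% of all probe sets had one. The peroxisome assembly factor PEX3 differed by 0.33 ± 0.136 (limma, unadjusted p = 0.0262) and the mitochondrial and peroxisomal transferase GSTK1 by 0.33 ± 0.116 (limma, unadjusted p = 0.0101), and the glutathione cycle gene OPLAH was lower, at -0.26 ± 0.108 (limma, unadjusted p = 0.0299).

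After maternal LPS, 11 of the 88 genes had an unadjusted p under 0.05 (12.5%), against 6.97% of all probe sets, 9 of them lower, where 3.59% of all probe sets were lower and 51.8% higher by sign. On the NADPH supply list, 7 of 8 genes were lower by sign (median -0.19). The list groups genes by pathway, and ME2 is among those whose enzyme does not mainly make NADPH. The malic enzymes ME2 (-0.44 ± 0.105, limma, unadjusted p = 0.000552, adjusted p = 0.293) and ME1 (-0.37 ± 0.108, unadjusted p = 0.00339) had an unadjusted p under 0.05. Without piglets 6 and 24, 6 of 8 were lower and the median was -0.16, and with the array spread as a covariate 6 of 8 and -0.13. Of 7 genes of glutathione peroxidation and synthesis, 6 were lower, with GCLM, the regulatory subunit of glutathione synthesis, at -0.40 ± 0.128 (limma, unadjusted p = 0.00613). Of 6 other quinone and carbonyl reductases, 4 were lower, and 3 of them had an unadjusted p under 0.05, namely the quinone reductase CRYZ (-0.33 ± 0.101), CBR4 (-0.49 ± 0.183) and PTGR1 (-0.35 ± 0.146). Of 17 other NRF2 targets, 13 were lower (median -0.06, and -0.03 without piglets 6 and 24), EPHX1 among them at -0.36 ± 0.170 (limma, unadjusted p = 0.0467). That list also holds ME1 and GCLM. In the thioredoxin system 10 of 13 were lower, with GLRX2 at -0.25 ± 0.0899 and TXN2, which was higher, at 0.26 ± 0.123 (limma, unadjusted p = 0.0114 and 0.0495), but the median of -0.09 was -0.0039 with the array spread as a covariate, where 7 of 13 were lower, and -0.02 without piglets 6 and 24, where 9 were. Superoxide dismutases and sources went the other way, with 6 of 7 higher (median 0.09), but 4 of 7 with the array spread (median 0.04). The peroxisome genes EHHADH (0.23 ± 0.103) and PEX3 (-0.24 ± 0.111) completed the 11. With the array spread as a covariate, 0 of 19 peroxisome genes had an unadjusted limma p under 0.05. The other quinone and carbonyl reductases then had 2 of 6 at that level, the other NRF2 targets 2 of 17 and the NADPH supply list still 2 of 8.

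Microalgae against control left 1 of the 88 genes at an unadjusted p under 0.05 (1.14%), where 1.65% of all probe sets were, the mitochondrial glutaredoxin GLRX2 (0.25 ± 0.117; limma, unadjusted p = 0.0440). The glutathione transferase GSTA1 had the largest difference of the genes named in that comparison, -0.92 ± 0.469 (limma, unadjusted p = 0.0657), and varied widely between piglets (SD 0.89 over all 19). The methionine sulfoxide reductases beside MSRA had 2 members measured. MSRB2 differed by 0.05 ± 0.142 between fish oil and control, and MSRB3 by -0.11 ± 0.102 between maternal LPS and saline.

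**Figure D4:**
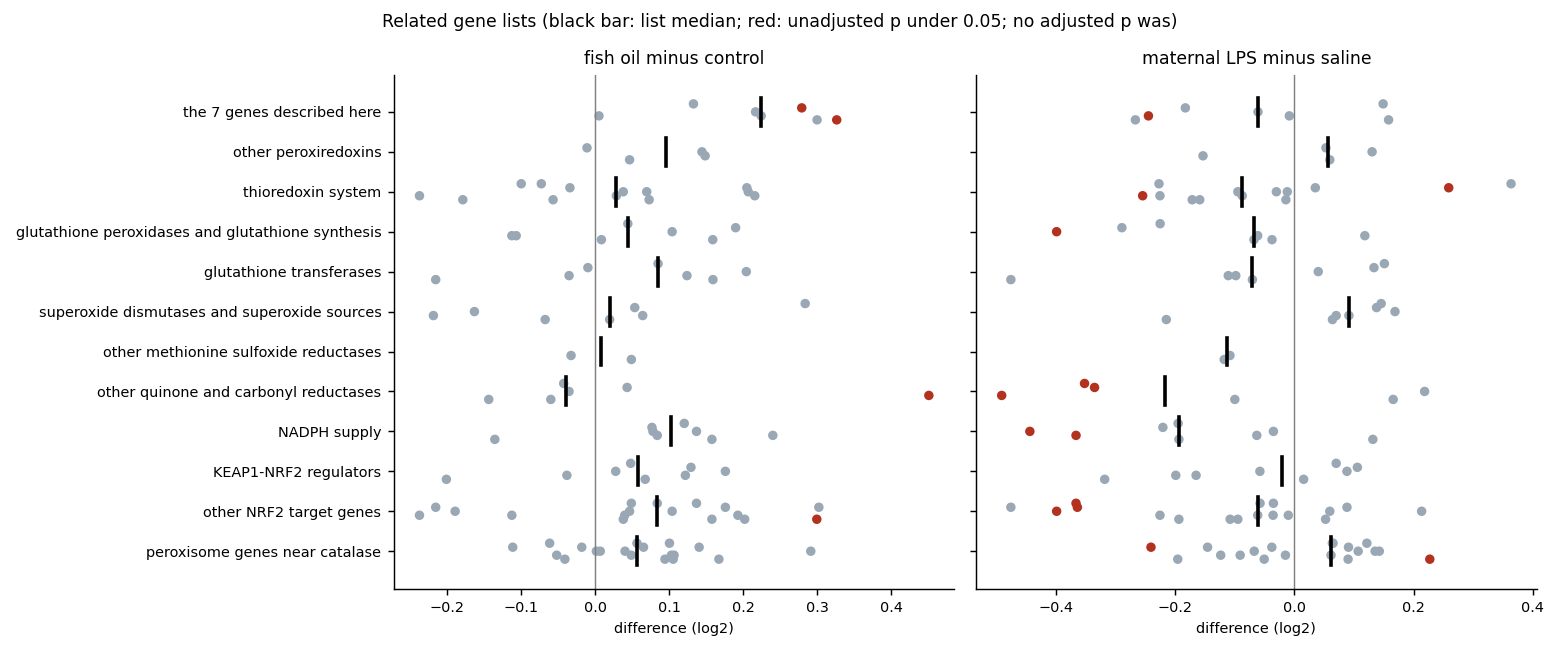
Differences (horizontal axis, log2) of single genes in each list, for fish oil minus control and maternal LPS minus saline. Each point is a gene, black bars are list medians and red points have an unadjusted limma p under 0.05. The 7 genes described here lie above 0 on the left, and on the right the genes of the NADPH supply list lie below 0 except for 1.

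Under other processing and with each piglet left out in turn, the fish oil minus control differences of PRDX2, PRDX6, NQO1, GSR, CAT and MSRA kept their sign, as did the maternal LPS minus saline differences of PRDX2, PRDX6, NQO1, GSR and CAT. PRDX6 ran from 0.21 to 0.42 with 1 piglet left out and NQO1 from 0.20 to 0.33 for fish oil, and GSR from -0.28 to -0.19 for maternal LPS.

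**Figure D5:**
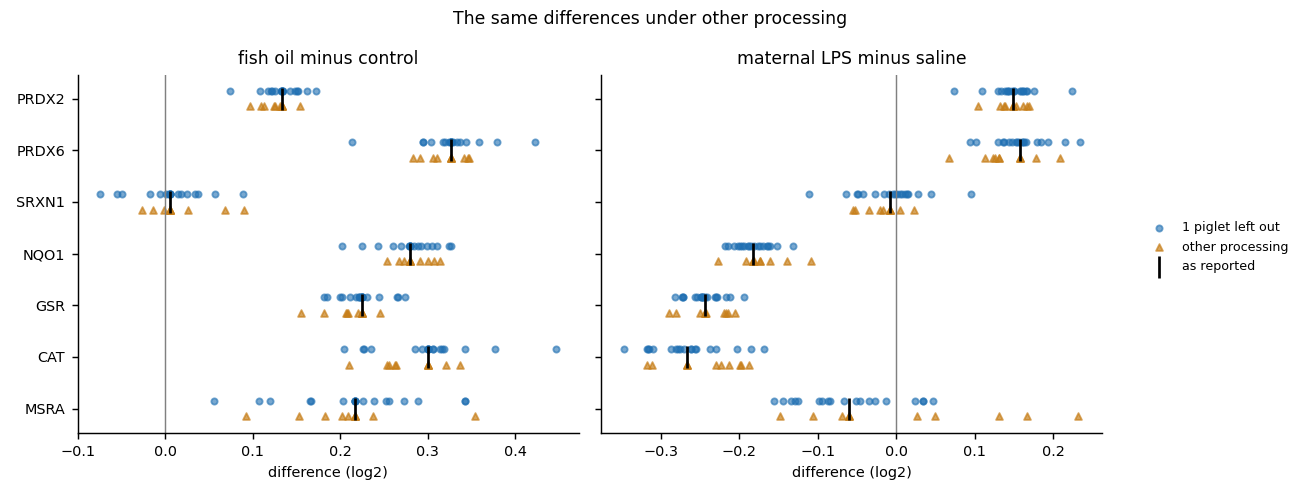
Differences (horizontal axis, log2) of the 7 genes for fish oil minus control and maternal LPS minus saline, as reported (black bars), with 1 piglet left out (blue circles) and under other processing (orange triangles). SRXN1 crosses 0 in both panels and MSRA in the right one, while PRDX6 and NQO1 stay above 0 on the left and GSR below 0 on the right.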

How the data were processed

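Whole adrenal glands of 19 piglets were measured on 1-colour Affymetrix arrays, with biotin-labelled cDNA per the labels' protocols. Per the submitters' processing notes, signals came from Transcriptome Analysis Console 4.0. The deposited table holds log2 values for each piglet. They run from 0.263 to 13.5, from which base 2 was taken. How they were summarized and normalized is not stated in the sources used here, and they were used as deposited. Of 27558 probe sets, 13157 have 1 gene symbol, 523 several and 13878 none, and 7 symbols were updated.

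Probe sets in the lowest 25% by mean signal, below 3.23, were not tested (6890), which kept 20668. With limma 3.58.1 in R 4.3.3, the means of 6 groups were fitted, letting the variance prior follow the mean signal. Diet differences average over both challenges and the maternal LPS difference over the 3 diets. Tests were two-sided, adjusted by Benjamini-Hochberg over all tested probe sets, with a threshold of 0.05. The 28 exact permutation tests (7 genes, 4 comparisons) are unadjusted and move labels within the other factor. Correlation p-values used 100000 permutations. For a symbol with several probe sets the one with the highest mean was used.

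The members and lists were chosen with earlier results of these data known. By a fixed rule all members, the 3 genes most like each, and in each list up to 4 genes with an unadjusted p under 0.05, or else the 1 with the smallest p, could be named. Cell type markers named at an unadjusted p under 0.05 were chosen after their values were seen. The fit was tested on simulated data. Alternatives were other filters, normalizations, weights, covariates and left-out piglets. Those without both piglets 6 and 24, and with the array spread, were added for the list counts after seeing the data.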

Additional observations from a re-analysis of the deposited data

How the results depend on the processing

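The number of arrays limits what follows. None of the 7 genes passed the adjusted threshold under any alternative run. The count of probe sets called for maternal LPS minus saline, 2 as reported, was 0 with no filter, quantile normalization, the additive model, the medulla score, the array spread, the red blood cell score and without both piglets 6 and 24, and 9 with array weights. It ran from 0 to 12 with each piglet left out, with 12 without piglet 7. The cause was not tested.

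Differences near 0 turned sign. For fish oil minus control, SRXN1 was -0.027 with quantile normalization, -0.014 with the medulla score and -0.0017 with the array spread. For microalgae minus control, CAT was -0.011 with array weights and -0.071 without piglets 6 and 24, and PRDX6 was 0.025 with array weights, 0.0097 in the additive model, 0.0052 with the medulla score and 0.0068 without piglets 6 and 24. For maternal LPS minus saline, MSRA was 0.049 with array weights, 0.026 in the additive model, 0.17 with the array spread, 0.23 with the red blood cell score and 0.13 without piglets 6 and 24, and SRXN1 was 0.022 with quantile normalization and 0.0045 with the array spread. The fish oil interaction was -0.0025 for MSRA with the medulla score, 0.068 and 0.025 for PRDX2 and 0.024 and 0.065 for PRDX6 with quantile normalization and array weights. Exact permutation, unadjusted, put GSR (0.22, fish oil minus control), PRDX2 (0.19, fish oil minus microalgae) and NQO1 (-0.18, maternal LPS minus saline) under 0.05.

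With each piglet left out, SRXN1 ran from -0.074 to 0.088 for fish oil minus control. For microalgae minus control CAT ran from -0.096 to 0.17, PRDX2 from -0.17 to 0.052 and PRDX6 from -0.12 to 0.086. For maternal LPS minus saline MSRA ran from -0.16 to 0.046 and SRXN1 from -0.11 to 0.095. The fish oil interaction ran from -0.011 to 0.44 for CAT, -0.14 to 0.44 for MSRA, -0.10 to 0.095 for PRDX2 and -0.24 to 0.18 for PRDX6. The microalgae interaction ran from -0.41 to 0.043 for PRDX2 and -0.55 to 0.064 for SRXN1.

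Median centring moved the split of unadjusted calls. For maternal LPS minus saline, 697 probe sets were higher and 743 lower as reported, against 389 and 1122. For fish oil minus control the counts were 288 and 267 against 362 and 207, for microalgae minus control 177 and 163 against 143 and 215, and for fish oil minus microalgae 321 and 269 against 502 and 158. No paired analysis was possible because the labels give each piglet its own number and no pairing.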
